A study of Mus musculus with 8 samples.

Results

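The stage effect shared by both sources of follicle was measured by setting 4 libraries of small antral follicles (SAF) against 4 libraries of preantral follicles (PF), with the source of the follicle as a covariate. All 8 libraries of the series entered this comparison. Each library was made from 1 follicle of a C57BL/6 mouse ovary, separated with a hypodermic needle, and measured polyadenylated RNA after amplification with the SMARTer Ultra Low Input kit. The source was either a wild type mouse (WT) or, per the labels, transplanted female germline stem cells (TF), so that the groups were PF-WT, SAF-WT, PF-TF and SAF-TF with 2 libraries each. The labels name no other allele or agent. They leave unsaid if replicate follicles were taken from different mice, and which cells of a TF follicle came from the transplant. The p-values therefore measure the spread between these follicles, part of which may be technical. Neither mouse age nor transplant host is stated in the sources used here. Of 21997 genes listed for both sources, 17925 passed the filter on low counts and were tested, and 8186 of those were called and separated the same way in both sources.

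A preantral follicle is an oocyte wrapped in layers of granulosa cells, which divide while the oocyte grows and stores RNA and protein for the embryo. The oocyte secretes growth factors to the granulosa cells and exchanges small molecules with them through gap junctions. As the follicle enlarges, a fluid-filled antrum opens, and theca layers with steroid-making cells, contractile cells, fibroblasts and blood vessels build up outside the basement membrane. The oocyte then makes up a smaller part of the follicle. In these whole-follicle libraries, fewer cells of a type and less RNA per cell cannot be told apart.

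Total counts over the genes in both tables ran from 7654700 to 9804822 per library, and 18796 to 20694 genes had at least 1 count. Levels are given as CPM, normalised read counts relative to the library total, scaled with TMM factors, and 3 counts correspond to 0.301 to 0.393 CPM. Some genes below, such as Rbp4, Tgfbr2, Hhip and Kdr, had a PF library at or under 3 counts. The size of their fold change is less well known. Replicate libraries of a group correlated at 0.920 to 0.962 on the log2 CPM scale across genes, which are not independent replicates, and differed by more than counting error in every group (chi-square per degree of freedom 10.2 to 36.8). Oocyte markers were abundant in all 4 PF libraries (Bmp15 at 596 to 1459.98 CPM) and the granulosa marker Inha was present in all 8, at no less than 259 CPM. Red cell transcripts were unevenly spread. The summed level of 5 erythroid genes was 2019 to 5374 CPM in the 4 WT libraries, 305 to 623 in 3 TF libraries and 9.73 in PF-TF replicate 1.

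In the stage effect over both sources, 3528 genes were higher in SAF (19.7% of those tested) and 5288 were lower (29.5%), at a Benjamini-Hochberg adjusted p under 0.05 in edgeR's quasi-likelihood test. The 49.2% called in all is the background against which every count of list members below is read. For 3293 of the higher genes (18.4% of those tested) and 4893 of the lower genes (27.3%), both SAF libraries also lay beyond both PF libraries in WT and again in TF. These 8186 genes (45.7%) are called separated below. The other 630 called genes overlapped between stages in at least 1 source. The median log2 fold change of all genes tested was -0.11, which shifted with the scaling to 0.02 with RLE factors and 0.23 with the authors' own factors. The share of calls that were higher moved with it, from 40.0% to 46.8% with RLE factors, 56.0% with the authors' factors and 47.8% in DESeq2. None of these settings called any gene in the opposite direction.

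**Figure D1:**
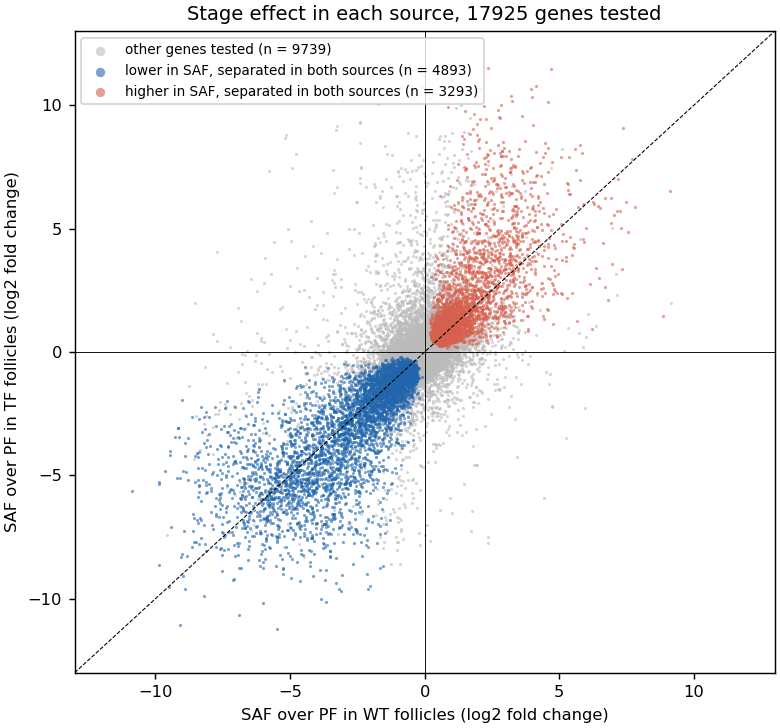
Log2 fold change of SAF over PF in WT follicles (x axis) against TF follicles (y axis), 1 point per gene tested, with the dashed line marking equal change. The 4893 genes separated lower (blue) and the 3293 separated higher (red) lie below and above 0 on both axes, as the rule that chose them requires.

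The oocyte lists had the lowest medians of the gene lists. All 8 genes of the oocyte growth factor and receptor list fell, a list that also holds Oosp1, Igf2bp2 and Igf2bp3. So did all 4 genes of the zona pellucida list, which are Zp1, Zp2, Zp3 and Astl. All 11 genes of meiotic arrest and resumption fell too, and all 17 of the subcortical maternal complex and its Nlrp relatives. The median log2 fold changes of these lists were -4.32, -4.18, -2.83 and -5.38, beside -0.11 over all genes. Further, 12 of 13 genes of maternal mRNA storage and decay fell (median -4.999), 13 of 15 of the germ granule and piRNA pathway (-3.47), 12 of 16 of DNA methylation and maternal chromatin (-2.26), 8 of 11 oocyte transcription factors (-4.71) and 8 of 13 of the meiotic chromosome axis (-2.11). In these 9 lists 1 gene rose.

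**Figure D2:**
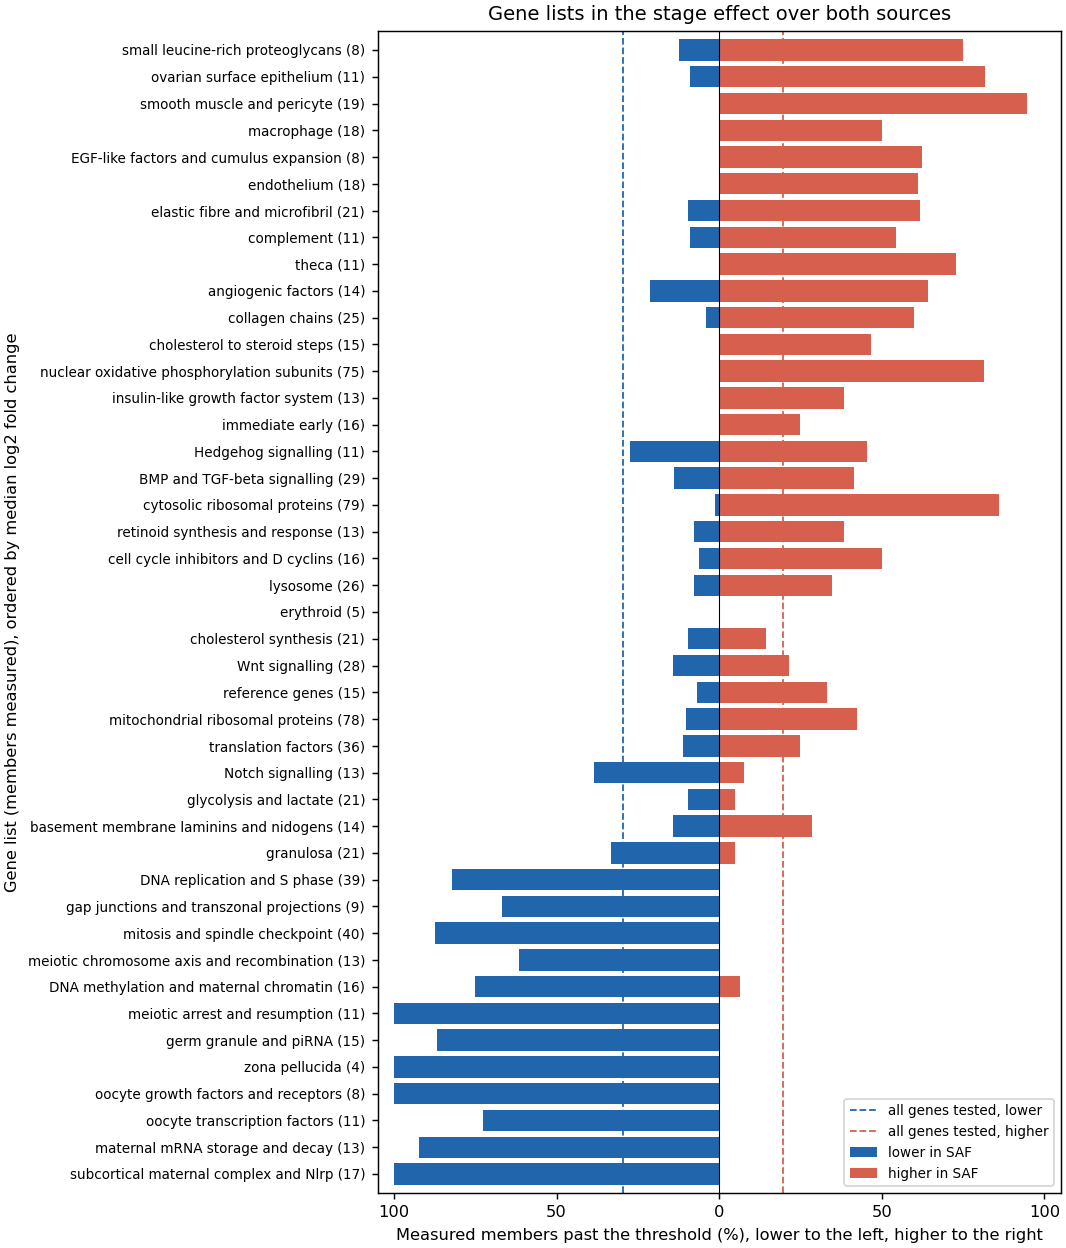
Share of the measured members of each gene list past the threshold in the stage effect over both sources (x axis, percent; lower in SAF to the left, higher to the right), with the number measured in parentheses and dashed lines at 29.5% and 19.7% for all genes tested. Oocyte, mitosis and DNA replication lists reach to the left. Smooth muscle, proteoglycan, respiratory chain and ribosomal protein lists reach to the right, as does the list of cell cycle inhibitors and D cyclins.

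Bmp15 encodes a growth factor that the oocyte secretes to its granulosa cells. It stood at 596 and 797 CPM in PF-WT against 16.6 and 22.95 in SAF-WT, and 1459.98 and 949 in PF-TF against 20.5 and 12.1 in SAF-TF (log2 fold change -5.67 ± 0.34, adjusted p = 5.54e-06). Its partner Gdf9 stood at 669 and 1272 CPM in PF-WT against 24.7 and 81.6 in SAF-WT, and 2949 and 2319.6 in PF-TF against 27.9 and 26.9 in SAF-TF (log2 fold change -5.38 ± 0.63, adjusted p = 1.47e-04). Neither gene overlapped between the stages. Fgf8, another secreted growth factor of the oocyte, lay at 81.1 to 127 CPM in PF and 0.676 to 4.61 in SAF (-5.45 ± 0.44, adjusted p = 2.13e-05). Oosp1, which encodes an oocyte-secreted protein, lay at 623 to 1337 CPM in PF and 17.01 to 36.4 in SAF (-4.97 ± 0.31, adjusted p = 6.68e-06). The receptor kinase gene Kit fell less, at 41.8 to 89.5 CPM in PF and 8.67 to 20.6 in SAF (-2.09 ± 0.34, adjusted p = 8.83e-04).

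Among regulators of meiosis, Mos, the kinase that helps to hold the egg at metaphase, stood at 449.6 and 292 CPM in PF-WT against 4.93 and 9.23 in SAF-WT, and 589 and 503 in PF-TF against 11.1 and 7.32 in SAF-TF (log2 fold change -5.80 ± 0.28, adjusted p = 4.57e-06). Fbxo43, an inhibitor of the anaphase-promoting complex in eggs, lay at 29.4 to 50.1 CPM in PF and 0.769 to 3.79 in SAF (-4.44 ± 0.44, adjusted p = 5.99e-05). Ccnb1, the mitotic cyclin that the oocyte stores and that dividing somatic cells also make, fell by less, lying at 709 to 981 CPM in PF and 70.2 to 179 in SAF (-2.83 ± 0.27, adjusted p = 4.87e-05). The members of this list thus spanned log2 fold changes from -5.92 to -0.73.

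Zbed3, which encodes a partner of the subcortical maternal complex, stood at 2458 and 1416 CPM in PF-WT against 34.6 and 66.7 in SAF-WT, and 3401 and 2468 in PF-TF against 59.4 and 40.3 in SAF-TF (log2 fold change -5.57 ± 0.34, adjusted p = 5.54e-06). Nlrp9b, of the oocyte-rich Nlrp family, lay at 240.02 to 527 CPM in PF and 2.52 to 7.03 in SAF (-6.44 ± 0.35, adjusted p = 4.82e-06). Of the 17 members of this list 16 were separated in both sources. Nlrp4 and Nlrp9 genes have near-identical copies, so reads could be split among them and their single levels are uncertain. In the handling of stored mRNA, Btg4, which recruits the deadenylase to maternal transcripts, lay at 1048 to 2319 CPM in PF and 15.8 to 74.2 in SAF (-5.10 ± 0.42, adjusted p = 2.32e-05). Zar1l and the poly(A)-binding gene Pabpn1l went the same way, with log2 fold changes of -5.82 and -6.98.

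The transcription factor gene Nobox, needed for oocyte growth, stood at 146 and 195 CPM in PF-WT against 2.98 and 15.9 in SAF-WT, and 473 and 329.98 in PF-TF against 6.6998 and 3.38 in SAF-TF (log2 fold change -5.22 ± 0.64, adjusted p = 1.81e-04). Lhx8, a LIM homeobox gene of the oocyte, lay at 70.8 to 191 CPM in PF and 1.35 to 7.57 in SAF (-4.71 ± 0.54, adjusted p = 1.28e-04). The clustered homeobox genes Obox1, Obox2 and Obox5 had log2 fold changes of -5.38, -5.10 and -5.43, again with copies that may share reads. Figla, which drives zona genes, was an exception, at 27.1 and 23.7 CPM in PF-WT against 13.4 and 53.9 in SAF-WT, and 51.1 and 54.9 in PF-TF against 4.28 and 2.93 in SAF-TF. Its SAF-WT libraries lay on both sides of its PF-WT libraries, and it did not pass the test (log2 fold change -1.63 ± 0.93, adjusted p = 0.172). Without SAF-WT replicate 2 it passed, lower (-2.55, adjusted p = 0.00747).

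In the germ granule list, Dazl, an RNA-binding germ cell gene, lay at 461 to 619.6 CPM in PF and 16.4 to 66.2 in SAF (-4.16 ± 0.38, adjusted p = 4.00e-05), and Henmt1, which methylates piRNA ends, at 64.3 to 99.6 CPM in PF and 0.676 to 1.77 in SAF (-5.98 ± 0.33, adjusted p = 4.82e-06). Among chromatin genes, the oocyte linker histone gene H1foo lay at 1652 to 2744 CPM in PF and 37.6 to 107 in SAF (-5.35 ± 0.39, adjusted p = 1.26e-05). Dnmt1, the maintenance DNA methyltransferase, lay at 269 to 957 CPM in PF and 27.4 to 50.04 in SAF (-3.82 ± 0.40, adjusted p = 8.56e-05), and the imprint-protecting zinc finger gene Zfp57 at 279 to 628 CPM in PF and 5.499 to 19.5 in SAF (-5.31 ± 0.49, adjusted p = 4.26e-05). The dioxygenase genes of this list split, since Tet3 fell (-2.40 ± 0.18, adjusted p = 1.46e-05) while Tet2, named after its value was seen, rose (1.10 ± 0.27, adjusted p = 0.00807), without passing in the 4 TF libraries alone (adjusted p = 0.0876).

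The 108 distinct genes of these oocyte lists held 83 that were separated lower. At the small antral stage these kept a median of 8.12% of their mean PF level in WT and 2.39% in TF. The 83 were chosen for lying lower in SAF, so these shares are low in part by that choice. They do not describe the other genes of the lists, such as Figla. Replicates of the small antral stage differed among themselves in both sources. In SAF-TF the median ratio of replicate 2 to replicate 1 over the genes separated lower was 0.587. In SAF-WT, of 80 genes with a count in replicate 1, 69 were higher in replicate 2, with a median ratio of 1.93 and a highest ratio of 35.1. That highest ratio, of Msh4, and the next, of Nlrp4e, rest on 0.115 CPM in replicate 1, which is under 3 counts. The zona genes were among the most unequal, with Zp3 at 1206 and 951 CPM in PF-WT against 82.5 and 850.4 in SAF-WT, and 2418 and 2708 in PF-TF against 101 and 29.2 in SAF-TF (log2 fold change -3.25 ± 1.10, adjusted p = 0.0338) and Zp2 at 703 and 678 CPM in PF-WT against 48.7 and 474 in SAF-WT, and 2865 and 2724 in PF-TF against 82.7 and 25.002 in SAF-TF (log2 fold change -3.54 ± 1.13, adjusted p = 0.0267). For Zp1 the 2 SAF-WT libraries held 2.18 and 30.05 CPM (log2 fold change -4.89 ± 0.89, adjusted p = 0.00165). Another group was near even, such as Obox5 at 35.3 and 25.4 CPM and Zar1l at 4.47 and 2.603 CPM. A ratio under 1.5 was found for 30 of the 80 genes and a ratio of 5 or more for 14, some of which had under 3 counts in replicate 1. The calls of Zp2 and Zp3 were lost without SAF-WT replicate 1 (adjusted p = 0.05015 and 0.0596), without either SAF-TF library and in the 4 WT libraries alone (0.208 and 0.284), while without SAF-WT replicate 2 all 4 zona calls held. Padi6 lost its call in the same 4 settings, and Nlrp5 without SAF-TF replicate 1 (adjusted p = 0.0535) and in the WT libraries alone.

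**Figure D3:**
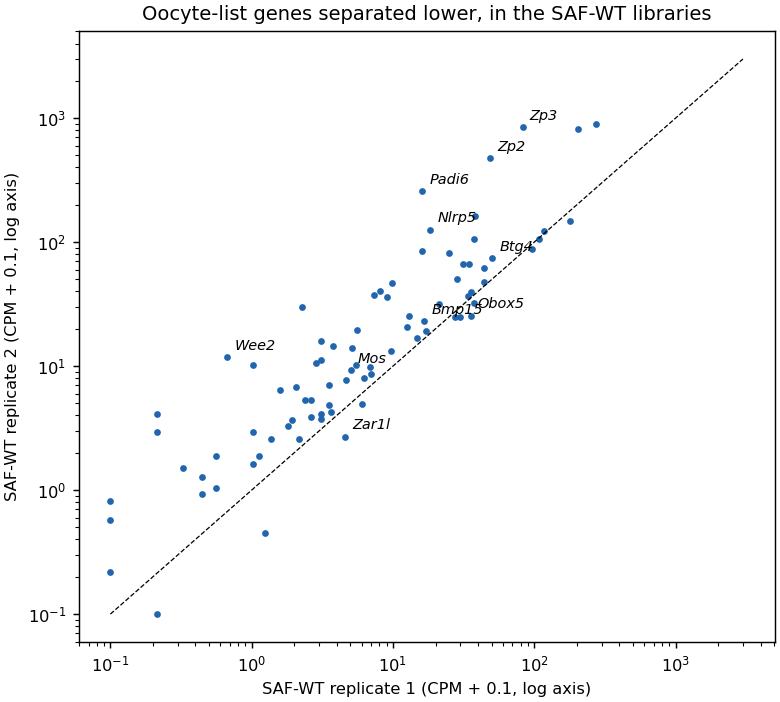
Level of each oocyte-list gene separated lower in SAF-WT replicate 1 (x axis) and replicate 2 (y axis), in CPM with 0.1 added on log axes, with the dashed line marking equality. Zona genes, Padi6 and Nlrp5 lie far above the line, and Obox5, Bmp15 and Btg4 lie near it.

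Genes separated lower also lay side by side on the chromosomes. Runs were formed from tested genes with a RefSeq record, ordered by start on GRCm38, and the members named here were chosen after their values were seen. The longest runs held 15 neighbouring genes, all separated lower. One lies on chromosome 4 at 143437164 to 144408467, from Oog4 through Pramef17 to Pramef12, in a family of oogenesin and Prame-like genes, with a median of -5.51 on the log2 scale. The other lies on chromosome 9 at 109139454 to 109790660, from Fbxw21 to Fbxw27, in a family of F-box and WD-repeat genes, with a median of -5.21. A run of 7 on chromosome 12 at 105032618 to 105222737 held Glrx5, the 5 genes Tcl1b1 to Tcl1b5 and Tcl1, with a median of -5.08. Glrx5, a glutaredoxin gene of another family, fell far less (-0.61 ± 0.17, adjusted p = 0.014), and its call was lost with the authors' factors, in the TF libraries alone, without PF-TF replicate 2 and without PF-WT replicate 1 (-0.41, adjusted p = 0.0753). Members of 1 family resemble each other in sequence, so that reads may be shared and the runs are not independent measurements. The longest runs of genes separated higher held 7, among them Hoxd11, Hoxd10, Hoxd9, Hoxd8 and Hoxd3 on chromosome 2 at 74591359 to 74748271, with a median of 2.95. Hoxd3 did not pass in the 4 WT libraries alone (adjusted p = 0.0719).

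Of 21 granulosa genes measured, 7 fell, 1 rose and 13 did not pass, with a median of -0.91. The share that fell lay near the 29.5% of all genes, and the share called in either direction lay below 49.2%. Amh, the granulosa hormone that restrains follicle recruitment, stood at 4.85 and 40.9 CPM in PF-WT against 0.573 and 1.301 in SAF-WT, and 49.7 and 27.5 in PF-TF against 6.04 and 4.62 in SAF-TF (log2 fold change -3.59 ± 0.68, adjusted p = 0.00213). Its receptor gene Amhr2 lay at 31.9 to 228 CPM in PF and 6.301 to 43.1 in SAF (-2.40 ± 0.40, adjusted p = 0.00107). The inhibin subunit gene Inha stood at 1270.2 and 2384 CPM in PF-WT against 259 and 346 in SAF-WT, and 2891 and 2719 in PF-TF against 1206 and 1691 in SAF-TF (log2 fold change -1.77 ± 0.36, adjusted p = 0.00311), with little space between the TF groups. The receptor gene Fshr did not pass (-0.60 ± 0.35, adjusted p = 0.189), and neither did the aromatase gene Cyp19a1 (-1.52 ± 0.92, adjusted p = 0.198). In the 4 WT libraries alone both passed, lower (-1.25 and -3.57), and Fshr did so without SAF-TF replicate 2 (-1.01).

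Of 9 genes of gap junctions and of the projections that granulosa cells send through the zona, 6 fell and none rose (median -1.40). Gja4, the connexin of the oocyte's gap junctions, stood at 143 and 117 CPM in PF-WT against 2.52 and 7.81 in SAF-WT, and 247 and 161 in PF-TF against 4.83 and 0.901 in SAF-TF (log2 fold change -5.37 ± 0.57, adjusted p = 8.81e-05). Gja1, the main connexin between granulosa cells, lay at 272 to 983 CPM in PF and 505 to 835 in SAF and did not pass (-0.03 ± 0.33, adjusted p = 0.95). The formin gene Daam1 (-1.40 ± 0.23, adjusted p = 9.19e-04) and the filopodial motor gene Myo10 (-1.04 ± 0.21, adjusted p = 0.00325) of the projections fell, Myo10 without passing in the 4 WT libraries alone (adjusted p = 0.075). Of 13 genes of Notch signalling 5 fell (38.5%, beside 29.5% of all genes), 1 rose (7.69%, beside 19.7%) and 7 did not pass. The median of this list was 0.12, beside -0.11 over all genes. The ligand genes Jag1 (-2.94 ± 0.47, adjusted p = 8.18e-04) and Jag2 (-4.27 ± 0.50, adjusted p = 1.44e-04) were among those that fell. The receptor gene Notch3 of the vessel wall was the 1 that rose (3.89 ± 0.98, adjusted p = 0.0091).

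In the Hedgehog list named ligand genes were lower and named targets higher. The ligand genes Ihh, at 4.72 to 12.6 CPM in PF and 0.7098 to 5.18 in SAF (-2.16 ± 0.47, adjusted p = 0.00461), and Dhh, at 7.21 to 15.4 and 1.72 to 4.503 (-1.74 ± 0.32, adjusted p = 0.00167), fell. The receptor and target gene Ptch1 stood at 42.1 and 51.2 CPM in PF-WT against 205 and 213 in SAF-WT, and 14.05 and 30.6 in PF-TF against 30.97 and 36.3 in SAF-TF and rose (log2 fold change 1.39 ± 0.36, adjusted p = 0.0103), with a wide gap in WT and a narrow one in TF, where it did not pass alone (0.68, adjusted p = 0.196). Hhip, a target that binds the ligands, lay at 0.111 to 7.21 CPM in PF and 7.21 to 131 in SAF (4.27 ± 0.52, adjusted p = 1.79e-04). Over the list of 11, 5 rose and 3 fell (45.5% and 27.3%, beside 19.7% and 29.5% of all genes), with a median of 0.84.

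Genes of cell division fell as a group. Of 40 genes of mitosis and the spindle checkpoint 35 fell and none rose (median -1.43), and of 39 genes of DNA replication and S phase 32 fell and none rose (median -1.33). Under the authors' factors, which raised the median of all genes by 0.35, these counts were 27 and 25, again with none higher. Part of each list is also stored in oocytes, and how the fall divides between oocyte and granulosa cells was not tested. Summed over the granulosa list, the level was 3581 to 6798 CPM in PF and 1578 to 4387 in SAF.

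Bub1b, a checkpoint kinase gene, stood at 185 and 165 CPM in PF-WT against 21.4 and 27.1 in SAF-WT, and 207 and 166 in PF-TF against 22.2 and 19.1 in SAF-TF (log2 fold change -3.01 ± 0.18, adjusted p = 5.17e-06). The mitotic kinase genes Plk1, at 56.6 to 103 CPM in PF and 8.99 to 13.7 in SAF, and Aurka, at 174 to 268 and 28.01 to 39.2, had log2 fold changes of -2.81 and -2.66. Orc1, of the origin recognition complex, lay at 36.6 to 93.6 CPM in PF and 3.29 to 5.21 in SAF (-3.65 ± 0.37, adjusted p = 7.20e-05), and the chromatin assembly gene Chaf1a at 42.1 to 95.9 CPM in PF and 4.93 to 8.79 in SAF (-3.28 ± 0.25, adjusted p = 1.42e-05). Not every proliferation gene passed the test. Mki67, a marker of cycling cells, lay at 97.1 to 176 CPM in PF and 45.4 to 155 in SAF (-0.44 ± 0.24, adjusted p = 0.16), and Pcna, the replication clamp gene, at 170.5 to 379.5 and 141 to 275 (-0.17 ± 0.17, adjusted p = 0.415). Of the 16 genes in the list of cell cycle inhibitors and D cyclins, 8 rose, 1 fell and 7 did not pass. The list also holds genes such as Rb1, Trp53 and Mdm2, so this is no count of inhibitors alone. Cdkn2c, an inhibitor of the G1 kinases, stood at 20.98 and 17.2 CPM in PF-WT against 149 and 115 in SAF-WT, and 8.07 and 7.92 in PF-TF against 134 and 105 in SAF-TF (log2 fold change 3.33 ± 0.27, adjusted p = 1.98e-05). Cdkn2b rose too (5.83 ± 0.89, adjusted p = 6.39e-04), at 0 to 1.403 CPM in PF, while its SAF-WT libraries held 2.06 and 1.301 and its SAF-TF libraries 52.9 and 78.3.

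Promoters of these cell cycle genes are shown because the members moved together and because motifs known from cell cycle promoters can be read in them. The 250 bases before the start were searched on both strands in RefSeq promoters of GRCm38.p6, which matched 12205 of the tested genes. The CHR element TTTGAA was found in 12 of 33 mitosis promoters (36.4%) and in 13.8% of all, and CCAAT in 23 of 33 (69.7%) and in 39.9% of all. Such shares were not particular to mitosis genes. The steroid list, whose called members rose, held CHR in 4 of 10 promoters (40%) and CCAAT in 7 of 10 (70%). The other lists searched held CHR in 5.17% to 20% and CCAAT in 29.3% to 58.1%. The E2F site, searched as TTTCCCGC or TTTGGCGC, was found in 6 of 31 S phase promoters (19.4%) and in 2.67% of all. Matches of different motifs may share bases. Below are the 150 bases before the start, on the gene's own strand, of the 4 mitosis genes separated lower that have 1 start and both CHR and CCAAT in this stretch, with matches on either strand in capitals.
Kif11 promoter (chr19:37376232-37376381, + strand): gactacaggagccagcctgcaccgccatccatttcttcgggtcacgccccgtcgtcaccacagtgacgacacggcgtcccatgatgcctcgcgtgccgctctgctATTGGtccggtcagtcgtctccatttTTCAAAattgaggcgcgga
Cdc20 promoter (chr4:118437344-118437493, - strand): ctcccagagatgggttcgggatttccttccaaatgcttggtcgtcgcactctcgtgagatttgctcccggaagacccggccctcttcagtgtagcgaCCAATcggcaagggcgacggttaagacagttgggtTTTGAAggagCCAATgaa
Ube2c promoter (chr2:164769779-164769928, + strand): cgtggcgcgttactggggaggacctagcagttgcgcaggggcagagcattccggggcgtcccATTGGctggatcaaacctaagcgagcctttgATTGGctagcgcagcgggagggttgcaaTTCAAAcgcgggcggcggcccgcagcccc
Espl1 promoter (chr15:102296143-102296292, + strand): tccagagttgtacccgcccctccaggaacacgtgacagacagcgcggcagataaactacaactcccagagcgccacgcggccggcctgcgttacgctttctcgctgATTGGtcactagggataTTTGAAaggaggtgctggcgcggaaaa

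In these 4 the CHR match began 18 to 29 bases before the start. Kif11 is a spindle motor gene, Cdc20 and Ube2c act in the anaphase-promoting pathway and Espl1 encodes separase. All were lower, with log2 fold changes of -0.99 for Kif11, -1.67 for Cdc20, -0.64 for Ube2c and -2.56 for Espl1. The calls of Ube2c and Kif11 were lost in 11 and 7 of the 17 alternatives, among them the WT libraries alone. The next set shows the same stretch of the 4 S phase genes separated lower that have 1 start and an E2F match there, with E2F and CCAAT matches in capitals.
Mcm5 promoter (chr8:75109359-75109508, + strand): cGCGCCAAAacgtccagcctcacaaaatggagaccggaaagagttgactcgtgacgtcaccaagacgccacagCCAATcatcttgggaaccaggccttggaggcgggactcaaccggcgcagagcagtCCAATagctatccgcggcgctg
Mcm6 promoter (chr1:128359706-128359855, - strand): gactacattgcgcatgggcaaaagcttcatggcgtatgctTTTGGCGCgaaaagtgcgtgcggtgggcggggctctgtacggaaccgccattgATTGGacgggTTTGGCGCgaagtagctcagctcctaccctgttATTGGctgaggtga
Cdc6 promoter (chr11:98908001-98908150, + strand): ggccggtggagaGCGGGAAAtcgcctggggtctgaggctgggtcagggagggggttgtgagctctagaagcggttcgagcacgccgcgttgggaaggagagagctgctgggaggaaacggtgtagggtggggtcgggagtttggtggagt
Gins3 promoter (chr8:95633409-95633558, + strand): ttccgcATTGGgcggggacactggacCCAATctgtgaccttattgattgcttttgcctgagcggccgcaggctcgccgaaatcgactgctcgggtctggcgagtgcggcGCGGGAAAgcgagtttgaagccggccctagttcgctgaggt

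Mcm5 and Mcm6 encode subunits of the replicative helicase, Cdc6 loads it and Gins3 belongs to its active form. Their log2 fold changes were -1.58, -1.45, -2.09 and -0.90, of which the Gins3 call was lost in 9 of 17 alternatives. Mcm6 did not pass in the 4 WT libraries alone (adjusted p = 0.0641). A match is a description of these letters and not a measured binding site. For comparison, the oocyte lists held the NOBOX motif TAATTG in 6 of 93 promoters (6.45%), beside 5.87% of all. Smooth muscle promoters held the CArG box in 1 of 15, beside 1.37% of all, in this window.

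In the lists for smooth muscle, theca, endothelium, collagens, proteoglycans and elastic fibres, most members were higher in SAF. Which cells these transcripts came from was not measured. Of 19 smooth muscle and pericyte genes 18 rose (median 3.38), as did 8 of 11 theca genes (1.91), 11 of 18 endothelial genes (2.33), 15 of 25 collagen chains (1.80), 6 of 8 small leucine-rich proteoglycans (3.89) and 13 of 21 genes of elastic fibres and microfibrils (2.31). Collagens, proteoglycans and elastic fibres also held members that fell, 1, 1 and 2 of them. With RLE factors, the authors' factors and DESeq2, each of these 6 lists again held more members higher than lower.

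Acta2, the actin of contractile cells, stood at 296 and 95.3 CPM in PF-WT against 1689.6 and 1479.7 in SAF-WT, and 24.4 and 45.9 in PF-TF against 869 and 553 in SAF-TF (log2 fold change 3.67 ± 0.45, adjusted p = 1.85e-04). Myl9, its myosin light chain partner, lay at 51.2 to 185 CPM in PF and 518 to 1213 in SAF (3.26 ± 0.30, adjusted p = 4.14e-05), and Tpm1, a tropomyosin, at 103 to 285 CPM in PF and 699.8 to 1272 in SAF (2.57 ± 0.19, adjusted p = 1.20e-05). Mfap5, a microfibril protein gene, stood at 14.4 and 8.09 CPM in PF-WT against 769.7 and 583 in SAF-WT, and 2.101 and 2.91 in PF-TF against 57.1 and 52.8 in SAF-TF (log2 fold change 5.26 ± 0.37, adjusted p = 9.84e-06). The 2 sources thus reached different heights from a low start. Ltbp2, which is also of the microfibril list, went the other way, lying at 9.97 to 21.9 CPM in PF and 1.69 to 2.197 in SAF (-2.98 ± 0.32, adjusted p = 8.83e-05). Lum, a proteoglycan of collagen fibrils, lay at 1.66 to 37.9 CPM in PF and 361 to 614 in SAF (4.94 ± 0.64, adjusted p = 2.47e-04), and Ogn, of the same family, stood at 149 and 55.2 CPM in PF-WT against 4886 and 2945 in SAF-WT, and 7.85 and 28.2 in PF-TF against 458 and 355 in SAF-TF (log2 fold change 4.88 ± 0.50, adjusted p = 7.11e-05).

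The basement membrane list did not move as a whole, with 4 of 14 higher, 2 lower and a median of -0.20, which was 0.14 with the authors' factors. Within it the linker genes Nid1, at 1.77 to 21.5 CPM in PF and 54.2 to 132 in SAF (3.65 ± 0.38, adjusted p = 8.27e-05), and Nid2 (3.51 ± 0.39, adjusted p = 1.03e-04) rose, and the collagen IV chain genes Col4a1 (3.03 ± 0.33, adjusted p = 1.01e-04) and Col4a2 (2.62 ± 0.34, adjusted p = 2.63e-04) rose among the collagens. The laminin chain gene Lama5 fell (-2.44 ± 0.51, adjusted p = 0.00359).

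Nr2f2, a nuclear receptor of theca and stroma, stood at 39.1 and 22.1 CPM in PF-WT against 232 and 183 in SAF-WT, and 10.5 and 16.5 in PF-TF against 140.1 and 113 in SAF-TF (log2 fold change 2.99 ± 0.25, adjusted p = 2.67e-05). Tcf21, a transcription factor of the ovarian mesenchyme, lay at 3.32 to 33.04 CPM in PF and 119 to 245 in SAF (4.02 ± 0.46, adjusted p = 1.29e-04). Lhcgr, the receptor for luteinizing hormone, lay at 2.004 to 7.998 CPM in PF and 67.2 to 513 in SAF (5.51 ± 0.80, adjusted p = 4.66e-04). Hsd3b1, which makes progesterone from pregnenolone, lay at 616 to 2847 CPM in PF and 3075 to 15028 in SAF (2.33 ± 0.24, adjusted p = 8.03e-05), and 7 of 15 steroid genes rose. Star, which brings cholesterol into mitochondria, stood at 7.74 and 3.32 CPM in PF-WT against 21.995 and 32.2 in SAF-WT, and 4.98 and 3.21 in PF-TF against 1287 and 865 in SAF-TF (log2 fold change 5.22 ± 1.25, adjusted p = 0.00718), and Fdx1, which passes electrons to the side chain cleavage enzyme, at 179.5 and 135 CPM in PF-WT against 502 and 495 in SAF-WT, and 66.9 and 112 in PF-TF against 4149.7 and 3189.6 in SAF-TF (log2 fold change 3.51 ± 0.76, adjusted p = 0.00414). Both were separated in each source, but the rise was far larger in TF, and 5 genes of this list passed the interaction test. The androgen enzyme gene Cyp17a1 passed the test (1.52 ± 0.47, adjusted p = 0.023) but was not separated, since SAF-TF replicate 2, at 2.82 CPM, lay below PF-TF replicate 2, at 3.11. Its call was lost without SAF-WT replicate 1 (1.31, adjusted p = 0.0605), without PF-WT replicate 2 (1.08, adjusted p = 0.058) and in the TF libraries alone (0.57).

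Among endothelial genes, Emcn stood at 6.29 and 2.88 CPM in PF-WT against 143 and 119 in SAF-WT, and 2.65 and 0.701 in PF-TF against 31.2 and 30.7 in SAF-TF (log2 fold change 4.56 ± 0.40, adjusted p = 3.02e-05), and Kdr, the main receptor for vascular endothelial growth factor, lay at 0.332 to 0.885 CPM in PF and 3.21 to 10.1 in SAF (3.17 ± 0.56, adjusted p = 0.00136). Pecam1, a standard endothelial marker, was not higher, at 7.74 to 14.2 CPM in PF and 4.35 to 11.97 in SAF (-0.83 ± 0.39, adjusted p = 0.103), and without SAF-TF replicate 1 it passed as lower (-1.24), as it did in the 4 WT libraries alone (-1.45, adjusted p = 0.0236). Markers of other cells that a dissected follicle can carry moved as well. The 18 macrophage genes summed to 33.4 to 569.9 CPM in PF, while the SAF-WT sums were 394 and 471 and the SAF-TF sums 960.3 and 1518; 9 rose, or 17 without PF-WT replicate 1 and 2 in the WT libraries alone. The 11 surface epithelium genes summed to 57.4 to 92.2 CPM in PF and 106 to 346 in SAF, and 9 rose and 1 fell. None of the 5 erythroid genes passed. The part of these cells in the changes of stroma and vessel genes was not tested.

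Several signalling lists held movement in both directions. In BMP and TGF-beta signalling 12 of 29 rose and 4 fell (41.4% and 13.8%, beside 19.7% and 29.5% of all genes). Tgfb2, a ligand gene, stood at 456 and 286 CPM in PF-WT against 17.99 and 12.1 in SAF-WT, and 293 and 314 in PF-TF against 16.1 and 11.4 in SAF-TF (log2 fold change -4.54 ± 0.24, adjusted p = 4.57e-06), while the receptor gene Tgfbr2 lay at 0.221 to 7.61 CPM in PF and 14.7 to 48.6 in SAF (3.52 ± 0.55, adjusted p = 7.02e-04) and the target genes Id1 (1.89 ± 0.19, adjusted p = 6.54e-05) and Id2 (3.37 ± 0.43, adjusted p = 2.46e-04) rose. In Wnt signalling 6 of 28 rose and 4 fell, or 9 and 4 with RLE factors, 12 and 3 with the authors' factors and 10 and 5 in DESeq2. The 21.4% that rose lay near the 19.7% of all genes, and the 14.3% that fell lay below their 29.5%. The Wnt list as a whole thus did not stand out. Lef1, a nuclear effector, lay at 27.5 to 49.4 CPM in PF and 1.03 to 2.84 in SAF (-4.12 ± 0.37, adjusted p = 3.50e-05) and the feedback target Axin2 fell (-2.14 ± 0.33, adjusted p = 7.04e-04), whereas the secreted inhibitor genes Sfrp1 (3.21 ± 0.43, adjusted p = 2.93e-04) and Dkk3 (2.98 ± 0.42, adjusted p = 4.27e-04) rose.

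Of 13 genes of retinoid synthesis and response 5 rose (38.5%, beside 19.7% of all genes), 1 fell (7.69%, beside 29.5%) and 7 did not pass. Rbp4, which carries retinol outside cells, lay at 0.221 to 3.41 CPM in PF and 7.43 to 88.5 in SAF (5.05 ± 0.34, adjusted p = 9.14e-06). The retinal dehydrogenase gene Aldh1a1 rose (3.25 ± 0.45, adjusted p = 3.64e-04) and the retinol dehydrogenase gene Rdh10 fell (-2.39 ± 0.28, adjusted p = 1.54e-04). Of 13 genes of the insulin-like growth factor system 5 rose, none fell and 8 did not pass. The 38.5% called lay below the 49.2% of all genes called in either direction. Igfbp7 lay at 28.2 to 111 CPM in PF and 448 to 914 in SAF (3.42 ± 0.27, adjusted p = 1.89e-05) and Igfbp6 at 15.1 to 23.8 CPM in PF and 92.4 to 276 in SAF (3.06 ± 0.32, adjusted p = 8.59e-05). In the complement list 6 of 11 rose (54.5%), among them the regulator gene Serping1 (3.84 ± 0.45, adjusted p = 1.53e-04), while 1 fell (9.09%) and 4 did not pass.

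Ribosomal protein genes and the respiratory chain rose by small amounts. Of 79 cytosolic ribosomal protein genes 68 rose and 1 fell (median 0.81), of 75 nuclear-encoded respiratory chain genes 61 rose and none fell (1.04), and of 78 mitochondrial ribosomal protein genes 33 rose and 8 fell (0.28), or 42 and 5 with RLE factors. Rps18 stood at 887 and 728 CPM in PF-WT against 2127 and 1879.9 in SAF-WT, and 214 and 242 in PF-TF against 432 and 516 in SAF-TF (log2 fold change 1.18 ± 0.15, adjusted p = 1.97e-04). Within each source SAF lay above PF, but both SAF-TF libraries lay below both PF-WT libraries. Uqcrb, of complex III, stood at 404 and 331 CPM in PF-WT against 1304 and 1011 in SAF-WT, and 160.5 and 194 in PF-TF against 578 and 641 in SAF-TF (log2 fold change 1.72 ± 0.15, adjusted p = 3.64e-05). The member that fell was Rpl17 (-2.28 ± 0.20, adjusted p = 3.59e-05). Many ribosomal protein genes have processed copies in the genome, so reads may be lost or shared.

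Transcript length moved with the direction of change. The longest annotated transcript had a median of 2449 bases in genes separated higher, 3108 in genes separated lower and 3040 in all tested genes with a transcript. Split into 5 groups of nearly equal size by length, the group of shortest transcripts (64 to 1535 bases) held the most rises. In it 32.3% were called higher and 21.1% lower, against 17.2% and 30.9% in the other 4 groups. Leaving out the ribosomal, mitochondrial ribosomal and respiratory chain lists, the shortest group still held 30.2% higher and 22.0% lower. The cytosolic ribosomal and respiratory chain lists, with 86.1% and 81.3% higher, lay above this share, and the mitochondrial ribosomal list, with 42.3%, lay nearer to it. The part of transcript length in these counts was not tested.

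Of 15 reference genes used to compare samples, 6 passed the test and 9 did not, or 8 and 7 with RLE factors, the authors' factors or DESeq2, a share near that of all genes. Actb (1.48 ± 0.17, adjusted p = 1.26e-04), B2m (1.68 ± 0.21, adjusted p = 2.21e-04), Hprt (1.03 ± 0.16, adjusted p = 6.93e-04), Ppia (1.21 ± 0.18, adjusted p = 5.11e-04) and Rpl13a (1.00 ± 0.13, adjusted p = 2.31e-04) rose and Tbp fell (-0.99 ± 0.14, adjusted p = 3.70e-04). Actb lay at 889.6 to 1332 CPM in PF and 2410.4 to 4559 in SAF.

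Separated genes were ranked by the change in the source where it was smaller, leaving out those with 3 counts or fewer over the 4 libraries of the lower stage, those under a mean of 10 CPM at the higher stage in either source, predicted genes, pseudogenes and ribosomal protein genes. Among those that fell and met these limits, Nr2e1 came first, an orphan nuclear receptor gene, at 58.1 and 35.3 CPM in PF-WT against 0.458 and 0.118 in SAF-WT, and 32.7 and 21.1 in PF-TF against 0.439 and 0 in SAF-TF (log2 fold change -7.07 ± 0.55, adjusted p = 1.78e-05). Zfp296, a zinc finger gene, lay at 98.3 to 199 CPM in PF and 0.802 to 1.98 in SAF (-6.83 ± 0.39, adjusted p = 5.14e-06), and Kif17, a kinesin gene, at 166 to 327 CPM in PF and 1.46 to 3.08 in SAF (-6.83 ± 0.29, adjusted p = 4.40e-06). Lypd3, Clvs2 and Adm2 were of the same order, at -7.29, -7.20 and -6.92. Their SAF levels lay near 3 counts per library, which limits how well the depth of the fall is known. Among those that rose and met the same limits, Ctla2a came first, at 4.59 and 2.22 CPM in PF-WT against 178 and 172 in SAF-WT, and 0.664 and 1.503 in PF-TF against 73.3 and 58.1 in SAF-TF (log2 fold change 5.78 ± 0.31, adjusted p = 4.57e-06). Rasgrp2, an activator of Rap proteins in blood cells, lay at 0.401 to 2.62 CPM in PF and 12.95 to 45.4 in SAF (4.79 ± 0.43, adjusted p = 3.68e-05), and Angpt1, which signals to the endothelial receptor Tie2, at 0 to 8.26 CPM in PF and 10.8 to 79.5 in SAF (4.05 ± 0.67, adjusted p = 9.79e-04). Efemp1, an extracellular matrix gene, lay at 0 to 3.28 CPM in PF and 37.9 to 88.2 in SAF (5.08 ± 0.69, adjusted p = 3.20e-04).

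**Figure D4:**
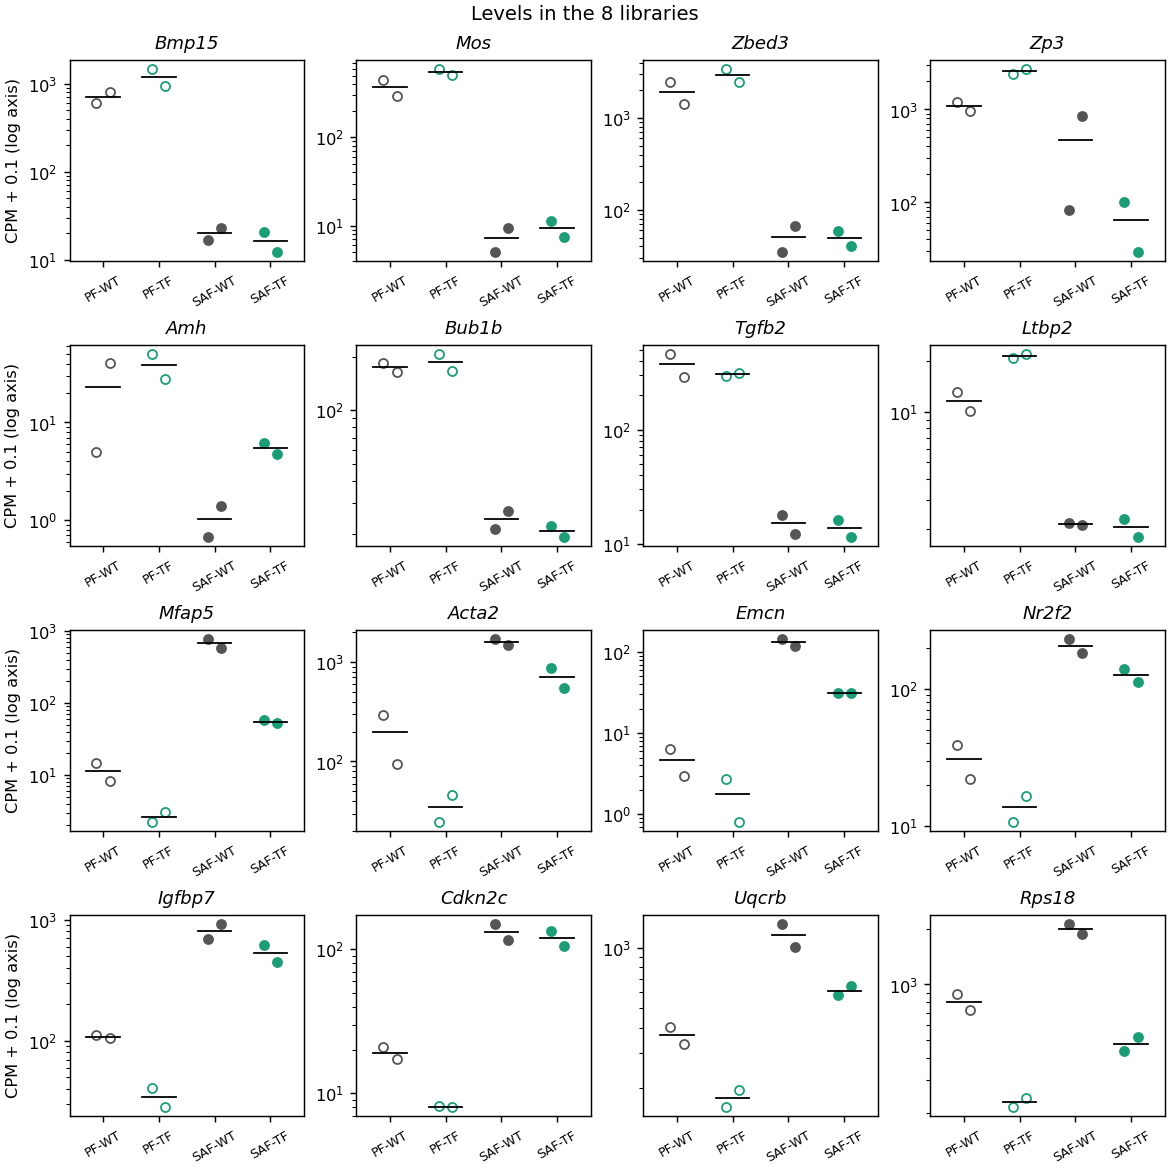
Level of 16 named genes in the 8 libraries, in CPM with 0.1 added on log axes that differ between panels; open circles are PF, filled circles SAF, grey WT and green TF, and bars are the means of 2 libraries. For each gene both SAF libraries lie beyond both PF libraries within each source, while for Amh and Rps18 the stages overlap once the sources are pooled.

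No count at all was found over the 4 PF libraries for 22 genes separated higher, and over the 4 SAF libraries for 128 separated lower. Most were low at the other stage, since 1 and 2 of them reached a mean of 10 CPM there. Saa2, an acute phase gene named after its values were seen, had no PF count and a mean of 12.4 CPM in SAF, at least 36.5-fold above 3 counts per library. Tmem74, named likewise, had no SAF count and a mean of 10.3 CPM in PF, at least 30.2-fold above that floor.

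The size of the stage effect differed between sources for 162 genes (0.904% of those tested) by the interaction test, and for 64 of the 8186 separated genes. Of these 64, 49 were higher and 15 lower in SAF. At the threshold within each source alone, 1606 genes rose in both and 3149 fell in both, and 47 were called in opposite directions.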

How the data were processed

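The 8 single-follicle libraries were read from 1 table per source. Per the file headers, the authors deposited raw counts per gene and library. The deposited normalized columns are a signal that averages the scaled counts of both libraries in a group, and the authors' scale factors were recovered from it for an alternative. The deposited log2 ratio and FDR p-value columns, the authors' own comparison of stages, were not used. Per the submitters' processing notes, HISAT2 2.0.1 and GRCm38 were used; counter, annotation and strand setting are not stated in the sources used here.

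Counts were joined on the gene name over 21997 genes; 132 TF and 141 WT genes listed for 1 source were left out. filterByExpr (min.count 10, min.total.count 15) kept 17925. The test was edgeR's quasi-likelihood test (edgeR 4.0.16, R 4.3.3; TMM factors; source plus stage, 5 residual degrees of freedom), adjusted by Benjamini-Hochberg over all genes at 0.05; values after ± are standard errors. A 4-group model gave the interaction. The common biological coefficient of variation was 0.362. Members, lists and tests were chosen with earlier results of these data known. Of 958 list symbols, 30 lay below the filter and 23 were not analysed here. Named genes are the 15 of largest change in the weaker source per direction within the limits given with them, up to 6 per list by p, reference genes and fixed markers. RefSeq records matched 16604 genes. A simulation of this comparison fitted 17245 genes. It set log2 changes of size 1, 2 and 4 in 68, 66 and 66 genes. The test called 22.1%, 74.2% and 97.0% of them the right way, and also called 11 unchanged genes. Far fewer genes changed there than the 49.2% called in the data. The Benjamini-Hochberg cut depends on how many genes change, so these shares do not measure recovery in the real comparison. Floors cover counting error only, since reads lacked molecular identifiers.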

Additional observations from a re-analysis of the deposited data

Results flagged for a closer look

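Results were flagged where the size of the stage effect differed between WT and TF by edgeR's quasi-likelihood test of the interaction, adjusted over all genes. The groups hold 2 libraries each, too few for a search for single outlying libraries. For Star the rise was larger in TF on the log2 scale (5.73 ± 0.58, adjusted p = 0.00428), at 2.31 in WT and 8.04 in TF. For Fdx1 it was also larger (3.69 ± 0.39, adjusted p = 0.0048), at 1.67 in WT and 5.35 in TF. Hoxd10, a homeobox gene, differed too (6.75 ± 1.03, adjusted p = 0.0278); it had no count in either PF-TF library, so this fitted value depends on the prior count and is no measure of size. Figla differed the other way (-4.28 ± 0.78, adjusted p = 0.0393), at 0.40 in WT and -3.87 in TF.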

How the results depend on the processing

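Counts over all genes held within 1.5 times the main value in 66 of 74 combinations of result and alternative. The exceptions were 2241 genes higher in the 4 WT libraries alone, against 3528, and 4949 genes separated higher with the authors' scale factors, against 3293. The interaction count of 162 became 810 in DESeq2 and ran from 28 (without SAF-WT replicate 2) to 343 (without PF-WT replicate 2) when single libraries were left out. A lone library was assumed to vary like the other groups. Leaving out single libraries gave 2807 to 4012 genes higher and 4503 to 4908 lower. With the replicate block, 3076 genes were higher and 4835 lower, and 2940 and 4588 were separated. Deviations of same-numbered libraries correlated at 0.001 in WT and 0.079 in TF. Differences between single follicles could hide a pairing, so these values do not decide if the numbers pair the follicles.

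Of 135 genes named, 14 lost their call in at least 1 alternative, 4 gained one and 5 changed sign. Gja1 changed sign with RLE factors (0.104), the authors' factors (0.313), the filter at 10 CPM (0.0043), DESeq2 (0.105), the replicate block (0.038) and the TF libraries alone (0.536), and ran from -0.286 to 0.294 with single libraries left out. Cyp19a1 (0.534) and Fshr (0.138) changed sign in the TF libraries alone, Figla (0.407) in the WT libraries alone and Pcna (0.181) with the authors' factors. None of these had passed the test; the cause was not tested.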
